A study of Arabidopsis thaliana with 12 samples.

Results

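The Arabidopsis table listed 254 genes whose description holds the words cytochrome P450. Of these, 26 were set aside by name: the CYP78A family to which KLU belongs, and the main P450s of camalexin and glucosinolate synthesis, abscisic acid breakdown, cytokinin, flavonoid, brassinosteroid and wax metabolism. Another 124 stayed under the filter of 0.5 FPKM (fragments scaled by transcript length and by the mapped fragments of the library) in 3 libraries, of which 35 were listed at 0 in every library. The remaining 104 P450 genes are described here, out of 19660 genes that passed the same filter. The rule of choice used the description, the level and the names set aside, not the difference between genotypes. It was set with earlier results of these data known. Of the 104 genes, 93 reached 0.5 FPKM in all 12 libraries and 0 passed through the libraries of a single genotype, the fewest being 7 libraries for CYP86C3 (0.29 to 0.76 FPKM) and CYP71A25, whereas just outside the filter CYP709B2 reached 0.5 FPKM in 2 libraries (0.03 to 0.76 FPKM) and CYP82C2 in 2 (0 to 0.96 FPKM). The 104 genes fell into 27 CYP families, led by CYP71 with 25 genes, CYP81 with 11, CYP705 and CYP86 with 8 each, CYP72 with 7 and CYP706 with 6, and 3 genes carried no CYP symbol. All 104 were matched to RefSeq (TAIR10.1), where 40 lay on chromosome 3.

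RNA had been sequenced from whole rosettes at 35 days after germination, from 3 individual plants of each of 4 genotypes, all in the Columbia (Col-0) ecotype and grown in short days. The genotypes were 35S:KLU1 and 35S:KLU2, 2 lines that overexpress KLU from the viral 35S promoter, active in most plant cells, then klu, a T-DNA insertion mutant of KLU, and Col-0, the wild type. KLU encodes a P450 itself (CYP78A5), so the comparisons ask which other P450 genes differed where 1 P450 was overexpressed or lost. KLU itself ranged over 1729 to 2274 FPKM for 35S:KLU1, 2021 to 2890 FPKM for 35S:KLU2, 0.13 to 0.22 FPKM for klu and 5.42 to 6.26 FPKM for Col-0, so that it lay above the wild type in both lines and below it in klu.

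The libraries summed to 1110149 to 1194277 FPKM, of which the 104 P450 genes held 1726 to 2141 FPKM, and the number of fragments behind a value is unknown. klu replicate 1 stood apart: 18684 genes and 95 of the P450s reached the filter there, against 19053 to 19230 genes and 101 to 104 P450s in the other 11 libraries. It held the lowest of the 12 values for 34 P450s and the highest for 15, so the counts and the calls that rest on it are given with and without it. The label names the tissue as leaf, and all 5 green leaf markers were present, whereas root, flower and seed markers summed to at most 0.88, 1.5 and 0.39 FPKM. The 4 shoot meristem markers summed to 7.09 to 8.62 FPKM for 35S:KLU1 and 5.68 to 7.85 FPKM for 35S:KLU2. Their sum was 0.06 to 14.39 FPKM for klu and 9.86 to 10.42 FPKM for Col-0, so the klu plants spread widely. The green leaf sum was 51773 to 57037 FPKM for 35S:KLU1, 51087 to 54533 for 35S:KLU2, 60180 to 72629 for klu and 60767 to 65098 for Col-0, and 2 of the 5 were lower in both 35S:KLU lines against either genotype. The part of these markers in the P450 results was not tested. In whole rosettes, a change in how many cells express a gene and a change of its RNA per cell cannot be told apart.

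Cytochrome P450s are heme enzymes that insert an oxygen atom into small molecules, taking electrons from NADPH through a reductase. Plants hold large families of them, many in tandem rows of close copies, and they build cutin, sterols, carotenoids, lignin precursors, hormones and defence compounds, or clear foreign chemicals. The iron of the heme is held by a cysteine in a short conserved loop near the end of the protein.

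The loop was used to check the genes, since their description alone chose them. A coding sequence was annotated for 102 of the 104, with proteins of 155 to 595 residues and a median of 509, and 99 of the 102 held the loop. The 3 without it were CYP72C1, CYP77A5P and CYP79A4P, and the 2 genes without a coding sequence, CYP705A16 and CYP71B18, are annotated as transcribed pseudogenes. The 30 bases that encode the loop are shown for the genes on which the results turn (RefSeq, TAIR10.1, coding strand, 5′ to 3′), with the cysteine codon in capitals.
CYP72A8: tttggatggggaccaagattcTGTcctggc
CYP71B23: tttggttctggtagaaggattTGTcccggt
CYP81D8: tttgggttaggaagaagggcgTGTcctggt
CYP76C6: tttggggctgggcgtagaattTGTccggga
CYP76C5: tttggggccgggcgtagaattTGTccggga
CYP81F4: tttggaagcggacggagaataTGTcccggt
CYP81F1: tttgggaatggccggagaactTGTcccggc
CYP86A2: tttaacgccggacctaggatcTGTctagga
CYP86A8: ttcaatgctggccctaggatcTGTctgggt
CYP97C1: ttcagtggagggcctagaaaaTGTgtaggc
The loops lie at chr3:4916671-4916700 (CYP72A8, + strand), chr3:9593500-9593529 (CYP71B23, - strand), chr4:17570160-17570189 (CYP81D8, - strand), chr1:12221137-12221166 (CYP76C6, - strand), chr1:12228272-12228301 (CYP76C5, + strand), chr4:17592556-17592585 (CYP81F4, + strand), chr4:17598617-17598646 (CYP81F1, + strand), chr4:162470-162499 (CYP86A2, + strand), chr2:18912782-18912811 (CYP86A8, - strand) and chr3:19695001-19695030 (CYP97C1, + strand). CYP76C6 and CYP76C5 are close copies, with 92.2% identical coding bases, and their loops differ at a single base outside the cysteine codon. Fragments could be split between such copies. In all, 6 members had a copy of at least 95% identity among the P450s: CYP89A5 and AT2G12190 (96.6%), CYP71B19 and CYP71B20 (96.2%), and CYP706A1 and CYP706A2 (97.3%).

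A minority of the P450 genes was called in the lines that overexpress KLU. Relative to Col-0, 11 of the 104 were higher and 4 lower in both 35S:KLU lines, beside 5.01% and 4.13% of all genes tested. Relative to klu, 22 were higher and 6 lower, beside 8.73% and 5.97% of all genes tested. The members called made up 10.6% (higher) and 3.85% (lower) against Col-0, and 21.2% (higher) and 5.77% (lower) against klu, so the share of P450s called higher lay above that of all genes and the share called lower close to it. A gene was called where the adjusted p from limma was under 0.05 in 35S:KLU1 and in 35S:KLU2, in the same direction, and fold changes are of the mean of both lines on the scale of log2(FPKM + 1), with their SE. The median log2 fold change of the 104 genes was 0.08 relative to klu and 0.04 relative to Col-0, beside 0.04 and 0.03 for all genes. The 6 overexpressors lay wholly above Col-0 for 21 P450s and below it for 16, beside 15.6% and 11.8% of all genes, and wholly above klu for 28 and below it for 10, beside 14.5% and 9.79%. All 11 genes higher than Col-0 were also called higher than klu, but the 2 comparisons use the same 35S:KLU libraries and this overlap is not independent. In all, 30 P450s were called in either comparison, 74 in neither, and 0 in opposite directions.

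The balance of higher and lower calls relative to Col-0 depended on the processing, with 16 higher and 15 lower with library weights and 12 and 10 under upper-quartile scaling. Among all 19660 genes, 1941 were higher and 1541 lower with library weights and 1126 and 1301 under upper-quartile scaling, against 984 and 811. The counts also depended on single plants. Without klu replicate 1, 14 P450s were higher and 11 lower than in Col-0 and 19 higher and 9 lower than in klu, beside 8.60%, 6.83%, 6.44% and 7.96% of all genes. The count higher than Col-0 dropped to 6 without 35S:KLU1 replicate 1 and to 7 without 35S:KLU2 replicate 3 or Col-0 replicate 1. The count of all genes dropped as well, from 984 to 515, 608 and 504 in these settings. The count lower than Col-0 dropped to 1 when 35S:KLU2 replicate 3 was left out, and to 2 for 35S:KLU1 replicate 2, 35S:KLU2 replicate 2, or Col-0 replicate 2 or 3. In the same order, the count of all genes dropped from 811 to 468, 550, 700, 485 and 472. Relative to klu, 14 were higher without 35S:KLU2 replicate 3 (1222 of all genes, against 1717) and 3 lower without 35S:KLU2 replicate 1 (771 of all genes, against 1174). Of the single calls, 7 of 15 relative to Col-0 and 13 of 28 relative to klu held in all 19 alternative settings.

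CYP72A8 (AT3G14620, chromosome 3, 4914789 to 4917176, + strand) gave the clearest separation. It stood at 61.99, 63.2 and 60.1 FPKM in 35S:KLU1 plants, 61.1, 58.9 and 78.2 FPKM in 35S:KLU2 plants, 25.6, 26.6 and 27.2 FPKM in klu plants and 31.3, 34.8 and 32.7 FPKM in Col-0. All 6 overexpressors lay above all 6 other plants, and the 3 klu plants lay below the 3 Col-0 plants. The log2 fold change was 1.24 ± 0.08 relative to klu (adjusted p = 5.75e-06) and 0.93 ± 0.08 relative to Col-0 (adjusted p = 7.7e-05), and the call held in all 19 settings.

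CYP71B23 (AT3G26210, chromosome 3, 9592727 to 9595283, - strand) had 59.3, 50.99 and 49.1 FPKM in 35S:KLU1 plants, 56.5, 44.7 and 61.4 FPKM in 35S:KLU2 plants, 19.6, 27.4 and 32.2 FPKM in klu plants and 22.6, 27.3 and 31.02 FPKM in Col-0. The overexpressors did not overlap with either genotype, whereas klu and Col-0 overlapped. Its log2 fold change was 1.02 ± 0.15 relative to klu (adjusted p = 0.000604) and 0.97 ± 0.15 relative to Col-0 (adjusted p = 0.00139). CYP704A2 (AT2G45510, chromosome 2, 18753023 to 18755172, + strand) had 22.9, 18.3 and 19.9 FPKM in 35S:KLU1 plants, 20.6, 19.9 and 25.3 FPKM in 35S:KLU2 plants, 7.91, 8.94 and 11.3 FPKM in klu plants and 11.6, 12.5 and 12.4 FPKM in Col-0, again with no overlap of the overexpressors with klu or Col-0. It changed by 1.10 ± 0.11 relative to klu (adjusted p = 6.75e-05) and 0.74 ± 0.11 relative to Col-0 (adjusted p = 0.00116). Both genes kept their calls in all 19 settings.

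CYP81D8 (AT4G37370, chromosome 4, 17569740 to 17571743, - strand), a gene known for its induction by foreign chemicals, reached 14.1, 17.1 and 14.7 FPKM in 35S:KLU1 plants, 14.02, 14.8 and 17.6 FPKM in 35S:KLU2 plants, 4.23, 7.54 and 7.41 FPKM in klu plants and 6.71, 6.75 and 8.82 FPKM in Col-0. The lowest overexpressor lay above the highest plant of klu and Col-0. The change was 1.18 ± 0.15 relative to klu (adjusted p = 0.000283) and 0.96 ± 0.15 relative to Col-0 (adjusted p = 0.00159). Its relative CYP81D1 (AT5G36220) reached 15.96, 13.8 and 14.8 FPKM in 35S:KLU1 plants, 14.1, 13.2 and 16.2 FPKM in 35S:KLU2 plants, 6.74, 6.09 and 10.1 FPKM in klu plants and 9.05, 11.3 and 10.9 FPKM in Col-0. It was higher than klu by 0.88 ± 0.13 (adjusted p = 0.000652), and the value relative to Col-0 of 0.46 ± 0.13 was not called in both lines (adjusted p of their mean = 0.03).

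**Figure D1:**
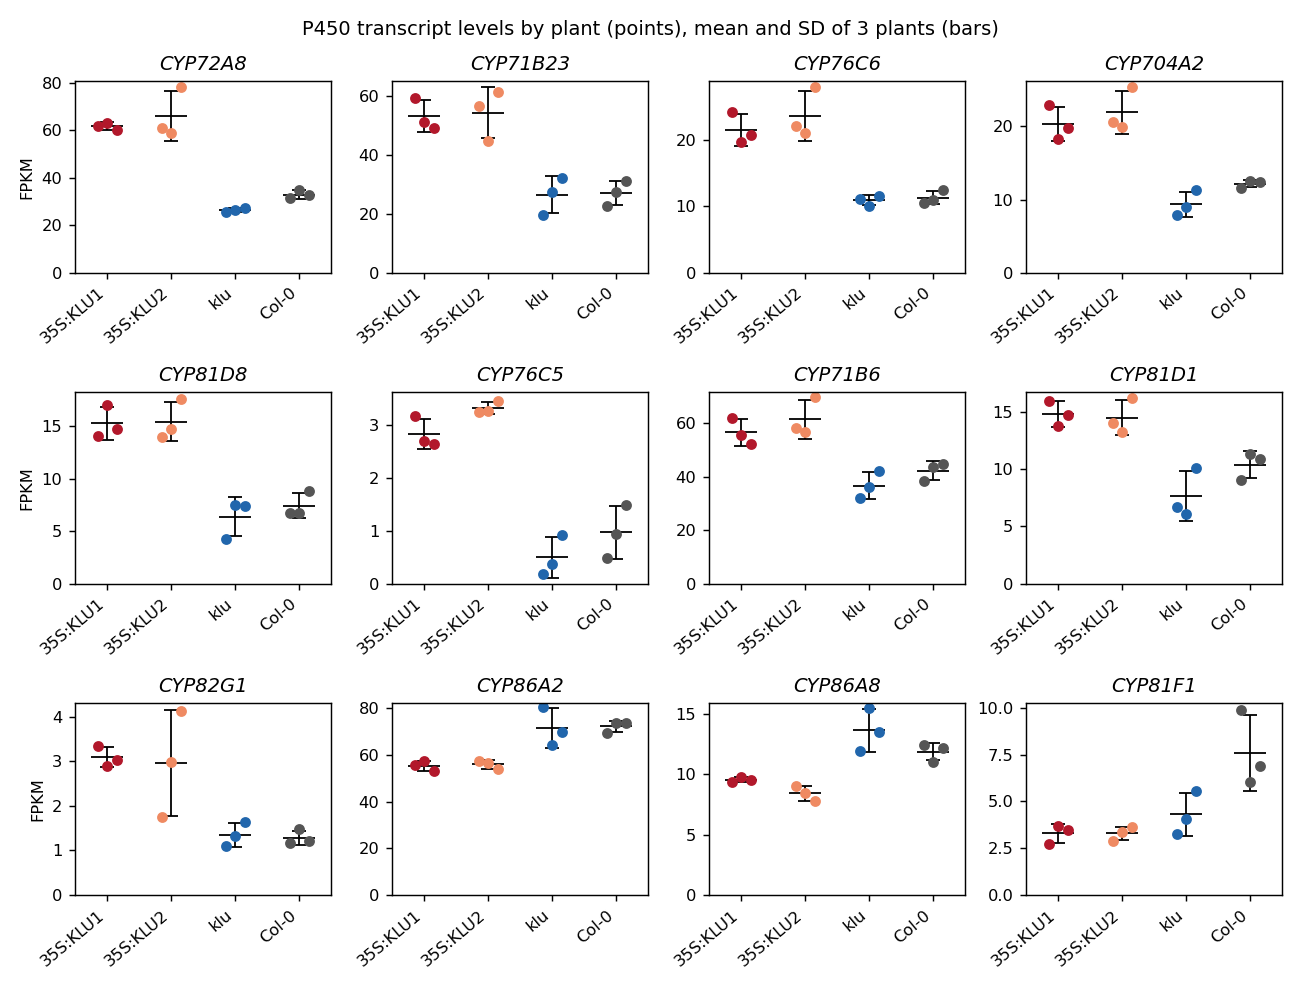
FPKM (vertical axis, linear from 0) of 12 P450 genes in 35S:KLU1, 35S:KLU2, klu and Col-0 (left to right), with a point for each of 3 plants and a bar at the mean with its SD. The overexpressors lie above both other genotypes in the first 9 genes, from CYP72A8 to CYP82G1, and below Col-0 in CYP86A2, CYP86A8 and CYP81F1.

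P450s that oxidise terpenes were represented by 4 genes, of which 1 rose in both comparisons, beside 8.73% (klu) and 5.01% (Col-0) of all genes. CYP82G1, which makes the volatile homoterpenes that attacked leaves release, had 3.34, 2.90 and 3.03 FPKM in 35S:KLU1 plants, 1.76, 2.99 and 4.14 FPKM in 35S:KLU2 plants, 1.09, 1.32 and 1.64 FPKM in klu plants and 1.17, 1.47 and 1.21 FPKM in Col-0. The overexpressors lay above klu and Col-0, and 35S:KLU2 replicate 1, at 1.76 FPKM, came closest to them. The log2 fold change was 0.76 ± 0.16 relative to klu (adjusted p = 0.00545) and 0.80 ± 0.16 relative to Col-0 (adjusted p = 0.00606). Its call relative to klu ended without klu replicate 1 (0.68 ± 0.19, adjusted p = 0.0228 for the mean of both lines) and with library weights. Both calls ended without 35S:KLU2 replicate 2 or 3. The call relative to Col-0 ended also without 35S:KLU1 replicate 1 or Col-0 replicate 1 or 3. Over all settings that ended it, the adjusted p of the weaker line was 0.0542 to 0.082. CYP76C1 and CYP76C2 oxidise the monoterpene alcohol linalool. CYP76C1 was abundant, at 42.99, 48.9 and 44.3 FPKM in 35S:KLU1 plants, 44.9, 49.9 and 49.4 FPKM in 35S:KLU2 plants, 61.5, 48.2 and 49.8 FPKM in klu plants and 55.2, 54.8 and 60.7 FPKM in Col-0, and was called in neither comparison, with -0.18 ± 0.08 (adjusted p = 0.133) and -0.28 ± 0.08 (adjusted p = 0.0322) relative to klu and Col-0, although all overexpressors lay below all Col-0 plants. CYP76C2 was low, at 1.66, 1.12 and 1.53 FPKM in 35S:KLU1 plants, 1.60, 2.35 and 2.67 FPKM in 35S:KLU2 plants, 0.10, 0.71 and 1.11 FPKM in klu plants and 2.37, 1.90 and 2.16 FPKM in Col-0. The klu plants lay below all others for CYP76C2, but the highest, at 1.11 FPKM, was next to 35S:KLU1 replicate 2 at 1.12 FPKM. The lowest, at 0.10 FPKM, was klu replicate 1, and the change without it is not given here. With all plants the change was 0.81 ± 0.19 relative to klu (adjusted p = 0.00796, not called in both lines) and -0.18 ± 0.19 relative to Col-0 (adjusted p = 0.55). CYP706A3, which oxidises terpenes of flowers, stayed between 0.24 and 1.31 FPKM and was not called.

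The close copies CYP76C6 (AT1G33720, chromosome 1, 12220858 to 12224108, - strand) and CYP76C5 (AT1G33730, chromosome 1, 12226852 to 12228556, + strand) rose together. CYP76C6 had 24.3, 19.7 and 20.8 FPKM in 35S:KLU1 plants, 22.1, 21.1 and 28.1 FPKM in 35S:KLU2 plants, 11.1, 10.1 and 11.5 FPKM in klu plants and 10.6, 10.9 and 12.5 FPKM in Col-0. CYP76C5 was lower, at 3.17, 2.71 and 2.64 FPKM in 35S:KLU1 plants, 3.26, 3.27 and 3.46 FPKM in 35S:KLU2 plants, 0.18, 0.38 and 0.93 FPKM in klu plants and 0.48, 0.95 and 1.49 FPKM in Col-0. Neither gene overlapped between the overexpressors and the other plants. CYP76C6 changed by 0.98 ± 0.10 relative to klu (adjusted p = 7.49e-05) and 0.93 ± 0.10 relative to Col-0 (adjusted p = 0.000218), and CYP76C5 by 1.48 ± 0.17 relative to klu (adjusted p = 0.000165) and 1.08 ± 0.17 relative to Col-0 (adjusted p = 0.0017). Both kept their calls in all 19 settings, but fragments shared between them cannot be told apart in these values.

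Of 5 P450s of indolic defence compounds, 2 rose relative to klu and 1 relative to Col-0, and 1 fell relative to Col-0. Of all genes, 8.73%, 5.01% and 4.13% were called in these ways. CYP71B6, which acts in the breakdown of indole acetonitrile, had 62.2, 55.5 and 52.2 FPKM in 35S:KLU1 plants, 58.1, 56.7 and 69.8 FPKM in 35S:KLU2 plants, 31.98, 36.2 and 42.1 FPKM in klu plants and 38.3, 43.8 and 44.99 FPKM in Col-0. The overexpressors lay above all klu and Col-0 plants, with 0.67 ± 0.10 relative to klu (adjusted p = 0.000582) and 0.47 ± 0.10 relative to Col-0 (adjusted p = 0.00709). The call relative to klu held in all 19 settings, whereas that relative to Col-0 ended without any 1 of the 3 Col-0 plants, of the 3 plants of 35S:KLU1, or of 35S:KLU2 replicate 1 or 3, and with no filter on low values (adjusted p of the weaker line 0.0517 to 0.141 over the settings that ended it). CYP81F1 to CYP81F4 hydroxylate indole glucosinolates, CYP81F4 at the nitrogen of the ring and the other 3 on its carbon frame. CYP81F1 fell, at 2.72, 3.69 and 3.45 FPKM in 35S:KLU1 plants, 2.91, 3.34 and 3.63 FPKM in 35S:KLU2 plants, 3.26, 4.07 and 5.58 FPKM in klu plants and 9.90, 6.03 and 6.88 FPKM in Col-0. All overexpressors lay below all Col-0 plants, but they overlapped with klu, which itself lay below Col-0. The change was -0.98 ± 0.16 relative to Col-0 (adjusted p = 0.00177) and -0.29 ± 0.16 relative to klu (adjusted p = 0.211).

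CYP81F4 had the widest spread between plants of all 104 genes, at 14.98, 11.8 and 7.69 FPKM in 35S:KLU1 plants, 9.31, 17.9 and 11.8 FPKM in 35S:KLU2 plants, 0.31, 6.44 and 4.11 FPKM in klu plants and 6.46, 6.99 and 6.28 FPKM in Col-0. All overexpressors lay above all klu and Col-0 plants, and the klu plant at 0.31 FPKM was replicate 1. The log2 fold change was 1.80 ± 0.43 relative to klu (adjusted p = 0.0091) and 0.76 ± 0.43 relative to Col-0 (adjusted p = 0.238). Relative to klu it was 1.06 at the lowest over the settings, without klu replicate 1, where the call held and CYP76C5 (1.32) and CYP72A8 (1.21) changed more. The call ended without 35S:KLU1 replicate 1 or 2 or 35S:KLU2 replicate 2 or 3, with a pseudocount of 0.1, with no filter on low values, with library weights and with only the compared genotypes in the model (adjusted p of the weaker line 0.0527 to 0.107 over the settings that ended it). The within-genotype SD of CYP81F4 on the log2(FPKM + 1) scale, 0.73, was the highest of the 104 genes, whose median was 0.17 beside 0.14 for all genes tested. CYP81F2 and CYP81F3 were called in neither comparison. CYP81F2 differed by 0.34 ± 0.14 relative to klu (adjusted p = 0.0924) and 0.17 ± 0.14 relative to Col-0 (adjusted p = 0.421), and CYP81F3 by 0.01 ± 0.14 relative to klu (adjusted p = 0.967) and 0.24 ± 0.14 relative to Col-0 (adjusted p = 0.263).

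Of 8 members that hydroxylate or epoxidise fatty acids for cutin and suberin, 2 fell relative to klu and 1 relative to Col-0, beside 5.97% and 4.13% of all genes, and 0 rose. The other 6 and 7 were not called, 2 of the 8 had a positive fold change in each comparison, and the medians were -0.13 relative to klu and -0.18 relative to Col-0. CYP86A2, also named ATT1, a fatty acid hydroxylase of cutin, had 55.6, 57.4 and 53.1 FPKM in 35S:KLU1 plants, 57.4, 56.4 and 53.9 FPKM in 35S:KLU2 plants, 80.7, 64.3 and 69.7 FPKM in klu plants and 69.6, 73.5 and 73.8 FPKM in Col-0. The overexpressors lay below every klu and Col-0 plant, with -0.35 ± 0.07 relative to klu (adjusted p = 0.00307) and -0.37 ± 0.07 relative to Col-0 (adjusted p = 0.00328). Relative to Col-0 its call ended without 35S:KLU2 replicate 3, at an adjusted p of 0.0504 in the weaker line. CYP86A8, also named LACERATA, had 9.35, 9.75 and 9.52 FPKM in 35S:KLU1 plants, 9.07, 8.42 and 7.80 FPKM in 35S:KLU2 plants, 11.9, 15.5 and 13.5 FPKM in klu plants and 12.4, 11.1 and 12.2 FPKM in Col-0, with no overlap either. It changed by -0.55 ± 0.08 relative to klu (adjusted p = 0.00076) and -0.37 ± 0.08 relative to Col-0 (adjusted p = 0.0102), and relative to Col-0 only 1 line passed. CYP86A4, another cutin hydroxylase, had 2.39, 1.95 and 2.03 FPKM in 35S:KLU1 plants, 2.45, 2.05 and 2.41 FPKM in 35S:KLU2 plants, 1.49, 3.21 and 3.91 FPKM in klu plants and 3.38, 3.65 and 3.26 FPKM in Col-0. Its log2 fold change was -0.21 ± 0.17 (adjusted p = 0.397) and -0.47 ± 0.17 (adjusted p = 0.079) relative to klu and Col-0, and without klu replicate 1 it was called lower in both comparisons (-0.50 ± 0.10, adjusted p = 0.00584 relative to klu and -0.47 ± 0.09, adjusted p = 0.00333 relative to Col-0). CYP77B1 likewise was called lower than klu only without that library (-0.53 ± 0.12, adjusted p = 0.0105). CYP86A1, the suberin hydroxylase of roots, was listed at 0 to 1.40 FPKM, and CYP77A6 and CYP77A4, which act on fatty acids, were not called.

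Of 10 other genes of cutin synthesis and export, 4 fell, 6 were not called and 0 rose in each comparison, beside 5.97% (klu) and 4.13% (Col-0) of all genes called lower. The 4 were the acyltransferases GPAT4 and GPAT8, HTH, which forms cutin diacids, and the exporter ABCG32. GPAT8 had 20.6, 22.3 and 22.1 FPKM in 35S:KLU1 plants, 22.1, 21.8 and 18.9 FPKM in 35S:KLU2 plants, 32.1, 34.95 and 30.7 FPKM in klu plants and 32.9, 31.9 and 31.4 FPKM in Col-0, with no overlap between the overexpressors and the rest. GPAT8 changed by -0.59 ± 0.07 relative to klu (adjusted p = 0.000132) and -0.57 ± 0.07 relative to Col-0 (adjusted p = 0.000352), and GPAT4 by -0.46 ± 0.07 relative to klu (adjusted p = 0.000741) and -0.53 ± 0.07 relative to Col-0 (adjusted p = 0.000638). The median of the 10 was -0.16 relative to klu and -0.30 relative to Col-0. The list of these 10 was chosen with earlier results of these data known, so its counts are a description only.

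The 3 carotenoid hydroxylases of the CYP97 family all had negative fold changes, and 1 was called lower than klu, beside 5.97% of all genes. CYP97C1 (LUT1), which hydroxylates the epsilon ring on the way to lutein, had 13.02, 13.4 and 12.5 FPKM in 35S:KLU1 plants, 13.4, 13.7 and 13.9 FPKM in 35S:KLU2 plants, 16.7, 16.4 and 15.8 FPKM in klu plants and 15.7, 15.1 and 15.7 FPKM in Col-0. The overexpressors lay below all klu and Col-0 plants, the klu plants lay above those of Col-0, and the replicate spread was the smallest of all 104 genes (within-genotype SD 0.037 on the same log2 scale). The change was -0.28 ± 0.06 relative to klu (adjusted p = 0.00396) and -0.21 ± 0.06 relative to Col-0 (adjusted p = 0.0228), called relative to klu, except without 35S:KLU2 replicate 1 or 3, where the adjusted p of the weaker line was 0.0545 to 0.069. CYP97A3 (LUT5), which hydroxylates the beta ring, had 46.5, 49.3 and 48.4 FPKM in 35S:KLU1 plants, 50.5, 55.6 and 54.97 FPKM in 35S:KLU2 plants, 65.05, 62.1 and 58.1 FPKM in klu plants and 56.6, 60.9 and 64.01 FPKM in Col-0, also with no overlap. CYP97A3 changed by -0.28 ± 0.06 relative to klu (adjusted p = 0.00571) and -0.25 ± 0.06 relative to Col-0 (adjusted p = 0.0142) but did not pass in both lines. CYP97B3 lay at 56.9 to 64.5 FPKM among the overexpressors, 63.4 to 65.2 FPKM among klu plants and 63.2 to 67.1 FPKM among Col-0 plants, and was not called. Of 11 other carotenoid genes, 6 fell relative to Col-0, 4 of them also relative to klu, and 0 rose, beside 4.13% and 5.97% of all genes called lower. These 4 were the cyclases LYC and LUT2, the hydroxylase BCH1 and the epoxidase ABA1. The list was chosen with earlier results of these data known, so its counts are a description only. ABA1, whose product feeds abscisic acid synthesis, had 110, 105 and 113 FPKM in 35S:KLU1 plants, 113, 116 and 106 FPKM in 35S:KLU2 plants, 160, 142 and 176 FPKM in klu plants and 147, 163 and 181 FPKM in Col-0. It changed by -0.52 ± 0.08 relative to klu (adjusted p = 0.000702) and -0.56 ± 0.08 relative to Col-0 (adjusted p = 0.000875), with all overexpressors below all other plants. The green leaf markers given above were lower in the same plants, and their part in this result was not tested.

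**Figure D2:**
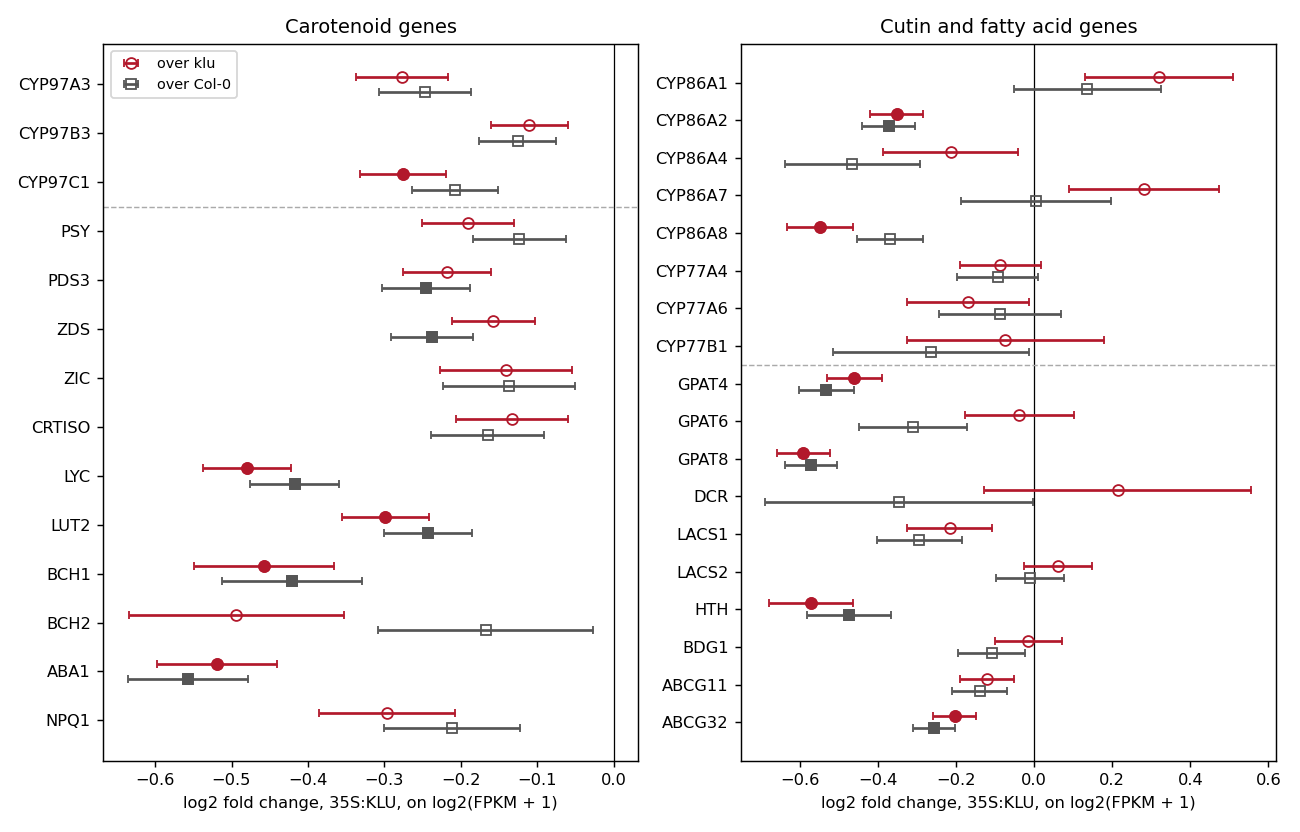
Log2 fold change on the log2(FPKM + 1) scale (horizontal axis, error bars SE) of 35S:KLU relative to klu (red circles) and Col-0 (grey squares) for P450s (above the dashed line) and their partner genes. Filled symbols were called in both lines. All 14 carotenoid genes lie left of 0 in both comparisons, and the called cutin genes, from CYP86A2 to ABCG32, lie there too.

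The hormone P450s kept here were 1 for gibberellin, 1 for jasmonate and 4 for other hormones, the main ones of other pathways having been set aside by name. Of these, 1 was called higher and 0 lower than klu, beside 8.73% and 5.97% of all genes. CYP711A1 (MAX1), which oxidises carlactone on the way to strigolactones, had 9.65, 11.3 and 10 FPKM in 35S:KLU1 plants, 10.7, 10.4 and 12.1 FPKM in 35S:KLU2 plants, 5.75, 8.12 and 8.76 FPKM in klu plants and 7.05, 7.93 and 8.14 FPKM in Col-0. The overexpressors lay above all klu and Col-0 plants, with 0.47 ± 0.11 relative to klu (adjusted p = 0.00983) and 0.43 ± 0.11 relative to Col-0 (adjusted p = 0.0209). Only the comparison with klu was called, and that call ended in 11 of the 19 settings, among them without klu replicate 1 (0.31 ± 0.09, adjusted p = 0.0269), without any 1 of the 6 overexpressors and without Col-0 replicate 2 or 3. Without klu replicate 1 the comparison with Col-0 was called instead (0.43 ± 0.08, adjusted p = 0.00208). Among 6 other strigolactone genes tested, the receptor gene D14 was higher in both comparisons, beside 8.73% (klu) and 5.01% (Col-0) of all genes. D14 had 71.1, 60.4 and 63.97 FPKM in 35S:KLU1 plants, 73.5, 65.7 and 68.9 FPKM in 35S:KLU2 plants, 57.2, 43.3 and 50.7 FPKM in klu plants and 40.8, 47.8 and 50.2 FPKM in Col-0, and changed by 0.42 ± 0.09 relative to klu (adjusted p = 0.0069) and 0.53 ± 0.09 relative to Col-0 (adjusted p = 0.00258). CYP722A1, which acts on strigolactone precursors, CYP90D1 of brassinosteroid synthesis, CYP72C1 of brassinosteroid inactivation, CYP88A3 (KAO1) of gibberellin synthesis and CYP94C1, which inactivates jasmonoyl-isoleucine, were called in neither comparison.

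Among 3 sterol P450s, CYP710A1, a desaturase that forms stigmasterol, was called higher than klu, beside 8.73% of all genes. CYP710A1 was low, at 1, 1.94 and 1.22 FPKM in 35S:KLU1 plants, 1.80, 2.27 and 1.32 FPKM in 35S:KLU2 plants, 0.06, 0.59 and 0.34 FPKM in klu plants and 0.76, 0.24 and 0.77 FPKM in Col-0, and did not overlap with either genotype. It changed by 0.96 ± 0.19 relative to klu (adjusted p = 0.0029) and 0.70 ± 0.19 relative to Col-0 (adjusted p = 0.0205), and the call ended without 35S:KLU1 replicate 2 (adjusted p of the weaker line 0.071). Its copy CYP710A2 was not called. CYP51G1, the sterol demethylase that all cells need, had 48.1, 46.1 and 45.2 FPKM in 35S:KLU1 plants, 44.4, 43.1 and 41.96 FPKM in 35S:KLU2 plants, 44.5, 51.5 and 55.6 FPKM in klu plants and 50.3, 54.9 and 57.5 FPKM in Col-0, and its changes of -0.16 ± 0.07 (adjusted p = 0.11) and -0.27 ± 0.07 (adjusted p = 0.0211) relative to klu and Col-0 were not called, although without klu replicate 1 it was called lower than Col-0 (-0.27 ± 0.05, adjusted p = 0.00376). CYP98A3 of lignin synthesis, CYP98A8, CYP84A4 and CYP89A9, which oxidises products of chlorophyll breakdown, were not called. CYP98A3 stood at 23.8, 24.7 and 26.2 FPKM in 35S:KLU1 plants, 25.9, 21.6 and 25.5 FPKM in 35S:KLU2 plants, 23.6, 25.4 and 28.2 FPKM in klu plants and 27.6, 23.3 and 28.6 FPKM in Col-0, with all genotypes overlapping. Of the 10 tested genes for P450 reductases, cytochrome b5 and the scaffolds that hold P450s, only the scaffold gene MSBP2 was called. It was higher in both comparisons, beside 8.73% (klu) and 5.01% (Col-0) of all genes. MSBP2 had 119, 116 and 115 FPKM in 35S:KLU1 plants, 133, 125 and 131 FPKM in 35S:KLU2 plants, 67.7, 82.8 and 91.6 FPKM in klu plants and 85.1, 95.4 and 97.3 FPKM in Col-0. MSBP2 rose by 0.61 ± 0.08 relative to klu (adjusted p = 0.000362) and 0.41 ± 0.08 relative to Col-0 (adjusted p = 0.00581).

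By family, the calls are given beside 8.73% higher and 5.97% lower than klu among all genes, and 21.2% and 5.77% among the 104. The families were not tested against these shares. In CYP81, 5 of 11 genes were higher and 1 lower than klu, in CYP71 5 of 25 and 1, in CYP72 2 of 7 and 0, in CYP76 2 of 4 and 0, in CYP89 2 of 3 and 0, and in CYP86 0 of 8 and 2. In CYP706, 0 of 6 genes were called in either comparison. In CYP705, 1 of 8 was lower in each, beside 5.97% (klu) and 4.13% (Col-0) of all genes. All CYP71 calls lay in the CYP71B subfamily with 21 genes, and 0 of the 4 CYP71A genes kept here were called. The main P450s of camalexin synthesis had been set aside by name and are not in these counts. CYP89A2 and CYP89A5 were higher than klu by 0.39 ± 0.07 and 0.53 ± 0.09 (adjusted p = 0.00156 and 0.00175), the first at 79.8, 80.8 and 71.3 FPKM in 35S:KLU1 plants, 75.98, 74.2 and 73.95 FPKM in 35S:KLU2 plants, 60.7, 53.05 and 59.9 FPKM in klu plants and 60.7, 69.7 and 69.2 FPKM in Col-0. These are small changes of abundant genes, and fragments of CYP89A5 may be shared with its near copy AT2G12190. CYP89A2 lost its call under median-of-ratios scaling alone. CYP81K1 had 19.1, 17.6 and 18.5 FPKM in 35S:KLU1 plants, 18.8, 17.6 and 19 FPKM in 35S:KLU2 plants, 14.1, 13.7 and 14.2 FPKM in klu plants and 13.5, 16.4 and 14.1 FPKM in Col-0, and changed by 0.37 ± 0.07 relative to klu (adjusted p = 0.00224) and 0.31 ± 0.07 relative to Col-0 (adjusted p = 0.00827). CYP96A4 had 59.95, 49.3 and 44.98 FPKM in 35S:KLU1 plants, 58.3, 66.6 and 64.5 FPKM in 35S:KLU2 plants, 30.4, 31.5 and 34.8 FPKM in klu plants and 36.6, 50.4 and 41.5 FPKM in Col-0, and was called relative to klu (0.80 ± 0.11, adjusted p = 0.000333), the klu plants lying below all others. CYP709B3 had 60.1, 54.5 and 54.6 FPKM in 35S:KLU1 plants, 57.1, 59.2 and 58.9 FPKM in 35S:KLU2 plants, 51.02, 48.6 and 45.3 FPKM in klu plants and 43.6, 45.2 and 47.04 FPKM in Col-0, and changed by 0.24 ± 0.06 relative to klu (adjusted p = 0.00851) and 0.34 ± 0.06 relative to Col-0 (adjusted p = 0.00223), but its call relative to klu ended in 13 of the 19 settings. CYP71B36 was called higher than klu (0.55 ± 0.14, adjusted p = 0.0137) and lost that call in 12 settings. CYP81K1 lost its call relative to Col-0 in 8 settings.

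**Figure D3:**
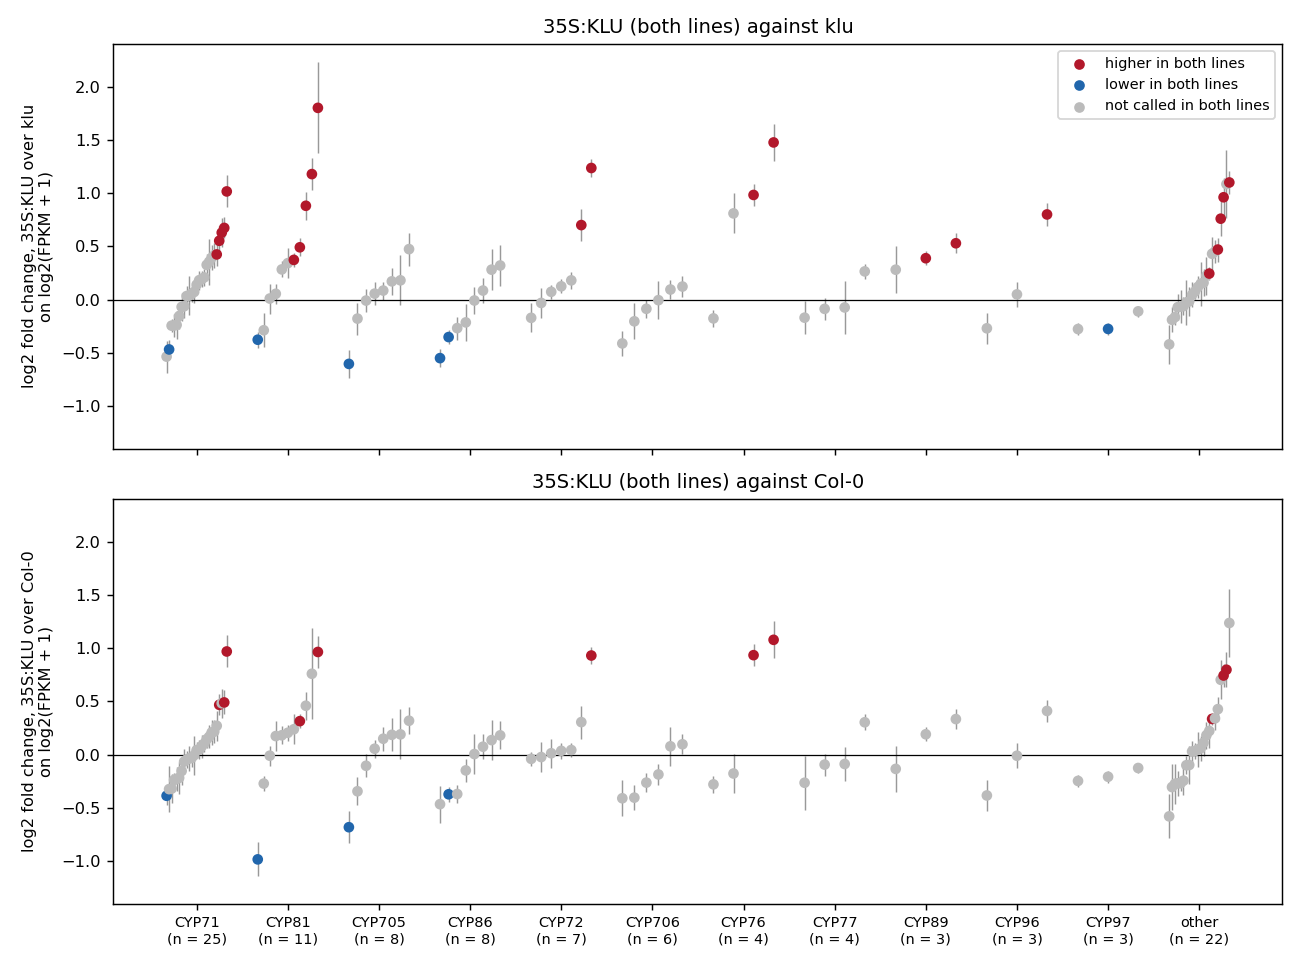
Log2 fold change on the log2(FPKM + 1) scale (vertical axis, error bars SE) of both 35S:KLU lines relative to klu (above) and Col-0 (below), with a point for each of the 104 P450s, grouped by CYP family and ordered by change. Red points were called higher and blue points lower in both lines. Small families and genes without a CYP symbol are pooled as other. Most genes lie near 0. The red points farthest from 0 lie in the CYP71, CYP72, CYP76 and CYP81 families and, with CYP704A2, among the pooled genes. The called CYP86 genes are blue.

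The 104 genes included 46 in 8 rows of at least 3 members, with starts at most 20000 bases apart. In these rows 9 genes were higher and 3 lower than klu (19.6% and 6.52%), beside 13 and 3 of the 58 genes outside them (22.4% and 5.17%). Of all genes, 8.73% were higher and 5.97% lower. In the row from CYP72A7 to CYP72A15 on chromosome 3, CYP72A8 rose next to CYP72A11, CYP72A13 and CYP72A15, which were as abundant and were not called. CYP72A11 had 63.4, 64.3 and 56.04 FPKM in 35S:KLU1 plants, 62.2, 67.3 and 65.7 FPKM in 35S:KLU2 plants, 65.5, 57.5 and 57.02 FPKM in klu plants and 62.02, 67.2 and 65.4 FPKM in Col-0, and changed by 0.07 ± 0.07 (adjusted p = 0.452) and -0.04 ± 0.07 (adjusted p = 0.715) relative to klu and Col-0. CYP72A8 shares 67.4% of its coding bases with its closest copy, CYP72A11. In that row CYP72A14 was called higher than klu as well (0.70 ± 0.15, adjusted p = 0.00614), but not without klu replicate 1 (0.57 ± 0.16, adjusted p = 0.027) or without 35S:KLU2 replicate 1 or 3.

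In the row from CYP86C2 to CYP71B24, also on chromosome 3, the 3 genes at one end rose, CYP71B23, CYP71B3 and CYP71B24. CYP71B3 had 14.6, 12.6 and 11.6 FPKM in 35S:KLU1 plants, 11.8, 10.8 and 12.1 FPKM in 35S:KLU2 plants, 5.79, 7.02 and 10.4 FPKM in klu plants and 7.67, 8.76 and 8.92 FPKM in Col-0, and was called higher than klu (0.63 ± 0.14, adjusted p = 0.00571). CYP71B24 had 22.8, 18.8 and 19.3 FPKM in 35S:KLU1 plants, 19.8, 18.5 and 22.1 FPKM in 35S:KLU2 plants, 13.7, 14.03 and 16.8 FPKM in klu plants and 11.4, 14.6 and 16.6 FPKM in Col-0, and changed by 0.42 ± 0.11 relative to klu (adjusted p = 0.016) and 0.49 ± 0.11 relative to Col-0 (adjusted p = 0.0106). Both overlapped with neither genotype, but without klu replicate 1 the calls relative to klu ended, as they did for both genes without klu replicate 2 or 35S:KLU2 replicate 1 or 3 (0.46 ± 0.13, adjusted p = 0.0217 for CYP71B3 and 0.37 ± 0.13, adjusted p = 0.0563 for CYP71B24, without klu replicate 1). In all, the call of CYP71B24 ended in 10 settings relative to klu and in 7 relative to Col-0. The other 5 genes of the row were not called, among them CYP71B20 at 80.6, 67.05 and 62.4 FPKM in 35S:KLU1 plants, 71.8, 78.7 and 77.2 FPKM in 35S:KLU2 plants, 66.4, 61.8 and 62.3 FPKM in klu plants and 61.4, 66.5 and 69.2 FPKM in Col-0. In the row from CYP81H1 to CYP81F1 on chromosome 4, neighbours went in opposite directions: CYP81H1, CYP81D8 and CYP81F4 were higher than klu, CYP81D4 was lower (-0.38 ± 0.07, adjusted p = 0.00306), CYP81F1 was lower than Col-0, and CYP81D5 and CYP81F3 were not called. CYP81D4 had 11.4, 12.3 and 12.2 FPKM in 35S:KLU1 plants, 11.9, 13.8 and 13.7 FPKM in 35S:KLU2 plants, 16.7, 16.6 and 16.4 FPKM in klu plants and 13.8, 16.6 and 15.7 FPKM in Col-0, and CYP81H1 had 23.2, 22.6 and 21.2 FPKM in 35S:KLU1 plants, 24.9, 24.5 and 28.5 FPKM in 35S:KLU2 plants, 15.6, 17.04 and 17.9 FPKM in klu plants and 18.2, 23.1 and 22.2 FPKM in Col-0. CYP81H1 overlapped with Col-0 and not with klu. CYP81D4 lost its call without 35S:KLU2 replicate 1, and CYP81H1 without 35S:KLU1 replicate 1 or 2.

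**Figure D4:**
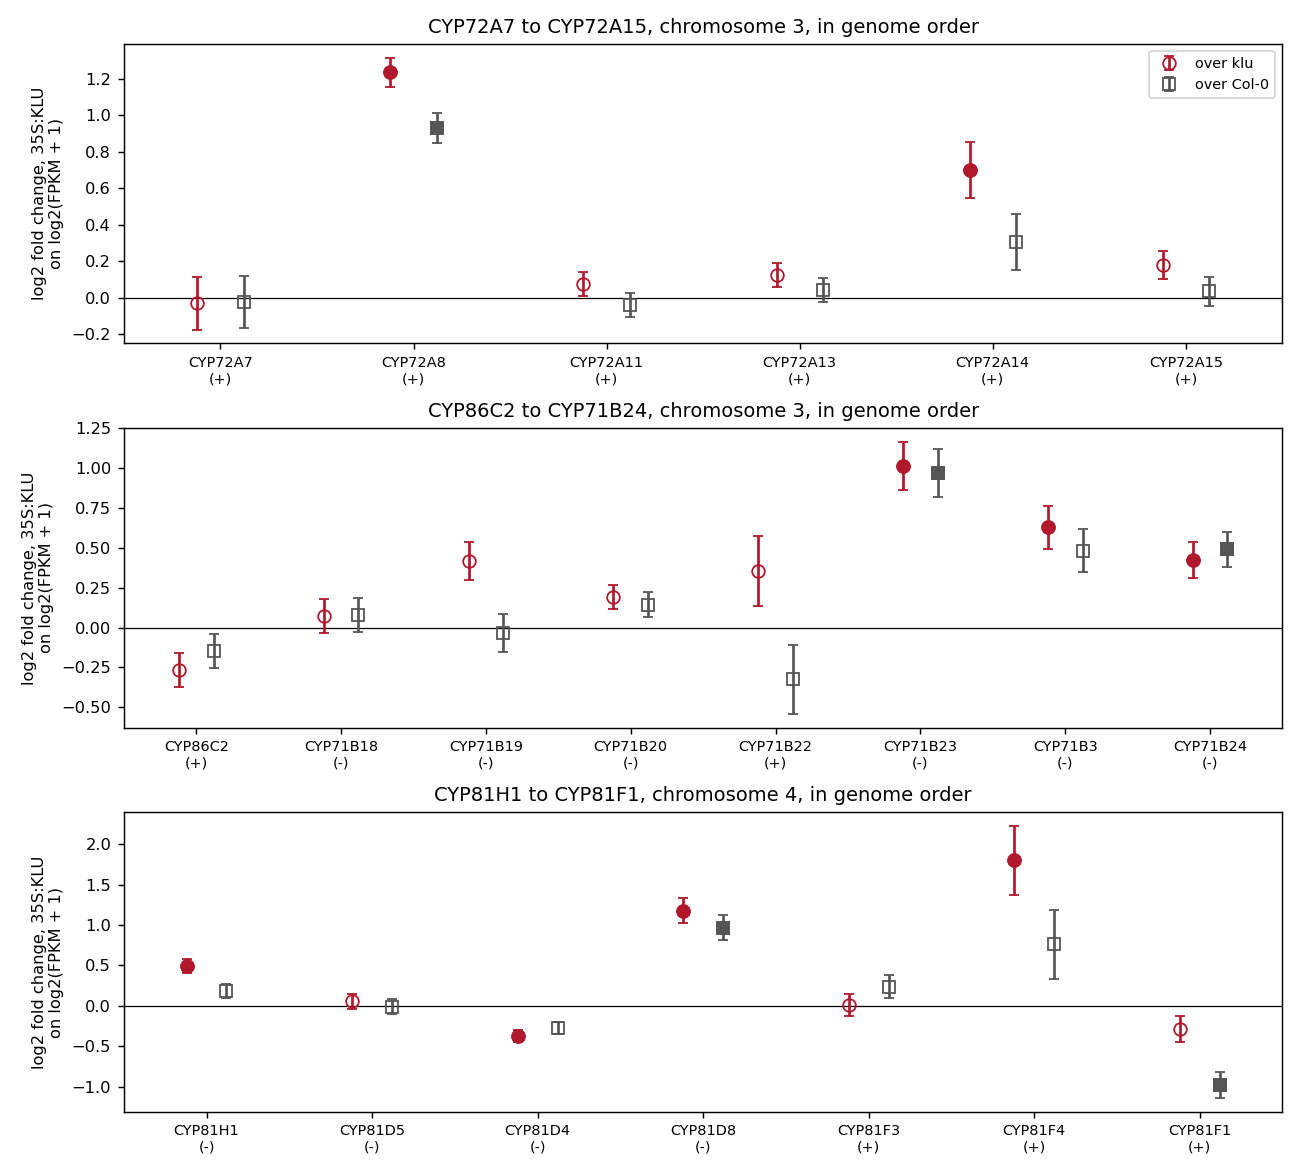
Log2 fold change on the log2(FPKM + 1) scale (vertical axis, error bars SE) of both 35S:KLU lines relative to klu (red circles) and Col-0 (grey squares) for 3 rows of tandem P450 genes in genome order, with the strand in brackets. Filled symbols were called in both lines. CYP72A8 stands above CYP72A11, CYP71B23 above CYP71B20, and CYP81D8 and CYP81F4 above CYP81D4 and CYP81F1, which lie below 0.

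The other genes that fell were few. CYP71B2 had 11.5, 11.4 and 14.6 FPKM in 35S:KLU1 plants, 13.7, 12.7 and 12.1 FPKM in 35S:KLU2 plants, 20.3, 16.7 and 16.7 FPKM in klu plants and 16.9, 16.3 and 17.2 FPKM in Col-0, below klu and Col-0 in all 6 overexpressors, and changed by -0.47 ± 0.09 relative to klu (adjusted p = 0.00299) and -0.39 ± 0.09 relative to Col-0 (adjusted p = 0.0119). Relative to klu its call ended without 35S:KLU2 replicate 3 (adjusted p of the weaker line 0.0504), and relative to Col-0 without any 1 of 8 plants or under median-of-ratios scaling (adjusted p of the weaker line 0.0596 under that scaling). CYP705A19 fell relative to Col-0 and CYP705A22 relative to klu, in the same row of CYP705A genes. CYP705A19 had 8.94, 5.57 and 7.91 FPKM in 35S:KLU1 plants, 8.42, 7.08 and 6.60 FPKM in 35S:KLU2 plants, 7.42, 7.31 and 11.02 FPKM in klu plants and 11.3, 13.7 and 12.3 FPKM in Col-0, with the klu plants below Col-0 and overlapping with the overexpressors, and changed by -0.68 ± 0.15 relative to Col-0 (adjusted p = 0.00848). CYP705A22 had 1.36, 1.38 and 1.22 FPKM in 35S:KLU1 plants, 1.09, 1.32 and 1.60 FPKM in 35S:KLU2 plants, 3.46, 2.39 and 1.91 FPKM in klu plants and 1.77, 2.17 and 1.92 FPKM in Col-0, and changed by -0.60 ± 0.13 relative to klu (adjusted p = 0.00616). Both calls ended when single plants were left out, 6 for CYP705A19 (2 of each 35S:KLU line and 2 of Col-0) and 2 for CYP705A22 (35S:KLU1 replicate 3 and 35S:KLU2 replicate 1).

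The promoters of the 104 genes were read for 3 motifs in the 250 bases before the annotated gene start (RefSeq, TAIR10.1), on both strands: the W-box core TTGAC, bound by WRKY factors, the G-box CACGTG and the TGA core TGACG, the first and last of which overlap in TTGACG. The W-box core stood in 18 of 22 promoters of P450s higher than klu (81.8%), in 9 of 11 of those higher than Col-0 (81.8%), in 28 of 74 of those not called (37.8%) and in 44.8% of the promoters of 19587 tested genes. Of all genes higher than klu, 54.8% held it. It also stood in 4 of the 6 promoters of P450s lower than klu (66.7%). Tandem copies can share promoter sequence, and outside the tandem rows the core stood in 10 of 13 P450s higher than klu and in 16 of 42 not called. The G-box stood in 1 of the 22 and in 7.37% of all, and the TGA core in 3 of the 22 and in 19.2% of all. The promoters of 3 genes that rose and of 2 abundant genes that were not called are shown 5′ to 3′ on the strand of the gene, with motif letters in capitals (GTCAA is the W-box core on the other strand).
CYP72A8: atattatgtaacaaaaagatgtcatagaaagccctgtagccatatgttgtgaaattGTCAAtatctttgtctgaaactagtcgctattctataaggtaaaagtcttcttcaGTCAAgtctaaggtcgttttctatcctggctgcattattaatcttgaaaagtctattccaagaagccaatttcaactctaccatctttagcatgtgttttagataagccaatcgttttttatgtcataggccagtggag
CYP81D8: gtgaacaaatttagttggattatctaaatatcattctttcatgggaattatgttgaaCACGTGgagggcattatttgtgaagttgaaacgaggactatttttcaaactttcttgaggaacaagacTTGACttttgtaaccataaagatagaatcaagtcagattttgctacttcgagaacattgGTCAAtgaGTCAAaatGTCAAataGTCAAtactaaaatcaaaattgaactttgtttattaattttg
CYP71B23: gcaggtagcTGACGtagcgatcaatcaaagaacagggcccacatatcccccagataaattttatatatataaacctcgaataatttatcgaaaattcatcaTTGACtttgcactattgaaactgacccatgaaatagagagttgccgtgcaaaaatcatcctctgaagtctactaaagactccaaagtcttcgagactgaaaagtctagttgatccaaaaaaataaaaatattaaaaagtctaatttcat
CYP72A11: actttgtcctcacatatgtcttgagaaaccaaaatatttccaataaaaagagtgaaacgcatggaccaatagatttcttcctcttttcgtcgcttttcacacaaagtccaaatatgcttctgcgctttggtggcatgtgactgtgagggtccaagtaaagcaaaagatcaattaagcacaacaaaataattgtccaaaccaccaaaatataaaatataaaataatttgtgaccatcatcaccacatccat
CYP71B7: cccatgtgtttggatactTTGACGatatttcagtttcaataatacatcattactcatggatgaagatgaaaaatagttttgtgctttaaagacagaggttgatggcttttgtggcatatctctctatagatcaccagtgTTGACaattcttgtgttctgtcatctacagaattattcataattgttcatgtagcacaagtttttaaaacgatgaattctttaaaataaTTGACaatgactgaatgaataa
They lie at chr3:4914539-4914788 (CYP72A8, + strand), chr4:17571744-17571993 (CYP81D8, - strand), chr3:9595284-9595533 (CYP71B23, - strand), chr3:4921881-4922130 (CYP72A11, + strand) and chr1:4466844-4467093 (CYP71B7, + strand). CYP81D8 held 5 matches to the W-box core, 4 of them spaced 8 bases apart within 66 bases of the start, CYP72A8 held 2 and CYP72A11 held 0. CYP71B7 held 3 and was not called, with overlap of all genotypes and 0.06 ± 0.08 (adjusted p = 0.659) and -0.05 ± 0.08 (adjusted p = 0.733) relative to klu and Col-0. A match is a description of the letters only.

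In klu relative to Col-0, which asks what loss of KLU changed, limma called 0 of the 104 genes, beside 0.061% of all genes, and the smallest adjusted p was 0.26. At an unadjusted p under 0.05, 14 P450s were lower and 0 higher in klu, beside 6.01% of all genes in either direction, 3.16% lower and 2.85% higher of all genes, and 13.5% of the members. The libraries of klu and Col-0 did not overlap for 10 P450s that were lower and 4 that were higher in klu, beside 3.64% and 4.48% of all genes. Without klu replicate 1, 17 were lower and 1 higher at that threshold, beside 2.19% and 7.23% of all genes. Without klu replicate 2 these were 9 and 0, beside 4.66% and 2.32%, and without klu replicate 3 they were 25 and 4, beside 8.46% and 3.53%. The P450s with a negative change numbered 69 of 104 with all plants and 57 without klu replicate 1, beside 54.2% and 33.8% of all genes. CYP76C2 had the smallest p, with -0.99 ± 0.22 (unadjusted p = 0.000646), and klu plants at 0.1 to 1.11 FPKM against 1.90 to 2.37 FPKM in Col-0. The lowest of these klu values was replicate 1, and the change of CYP76C2 without it is not given here. CYP81F1 followed with -0.70 ± 0.18 (unadjusted p = 0.00272), and CYP72A8 with -0.31 ± 0.09 (unadjusted p = 0.00711) was lower in all 3 klu plants. Of the 22 genes higher in the overexpressors than in klu, 19 had a lower mean in klu than in Col-0, but these genes were chosen with the klu values and this direction is in part set by that choice.

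The 2 overexpression lines were not told apart by any P450 after adjustment. In 35S:KLU2 relative to 35S:KLU1, limma called 0 of the 104 genes, beside 0.0102% of all genes, and 3 passed an unadjusted p under 0.05, CYP706A5, CYP96A4 and CYP97A3, beside 5.66% of all genes. The smallest adjusted p was 0.863. CYP97A3 illustrates the size, at 50.5, 55.6 and 54.97 FPKM in 35S:KLU2 and 46.5, 49.3 and 48.4 FPKM in 35S:KLU1, a log2 fold change of 0.16 ± 0.07. By the rule of calling, each line alone calls at least as many genes as both. Relative to klu, 25 were higher in 35S:KLU1 and 26 in 35S:KLU2 (22 in both), and 10 and 6 lower (6 in both). Relative to Col-0, 14 and 16 were higher (11 in both), and 11 and 6 lower (4 in both). The share of all genes called in each line alone is not given here.

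Most P450s of the rosette were expressed at levels that the genotypes shared. FPKM is scaled by transcript length, so that levels can be compared between genes. Of the 104 genes, 52 had a mean over the 12 libraries of at least 10 FPKM, 12 of at least 50 FPKM and 9 of under 1 FPKM. CYP706A1, whose near copy CYP706A2 may share its fragments, was the most abundant, at 117, 120 and 107 FPKM in 35S:KLU1 plants, 127, 112 and 135 FPKM in 35S:KLU2 plants, 127, 93.6 and 111 FPKM in klu plants and 120, 139 and 151 FPKM in Col-0. CYP706A6 followed, at 85.4, 100 and 77.5 FPKM in 35S:KLU1 plants, 87.9, 95.2 and 102 FPKM in 35S:KLU2 plants, 153, 111 and 105 FPKM in klu plants and 118, 116 and 129 FPKM in Col-0, with all overexpressors below all klu and Col-0 plants. Its change of -0.41 ± 0.12 (adjusted p = 0.0206) and -0.40 ± 0.12 (adjusted p = 0.0293) relative to klu and Col-0 was not called in both lines, although without klu replicate 1 it was called lower than Col-0 (-0.40 ± 0.08, adjusted p = 0.00334). CYP71B7 came next, with all genotypes overlapping at 72.6 to 95.7 FPKM. The called genes had a median mean level of 14.4 FPKM (n = 30) and the others of 6.37 FPKM (n = 74), as a description only.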

How the data were processed

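RNA from whole rosettes of 12 individual plants, 3 for each of 4 genotypes, was poly(A)-selected and sequenced from strand-specific libraries. The deposited FPKM values were made by the authors with STAR (version not given in the sources used here) and RSEM 1.2.22 on TAIR10. FPKM is scaled by transcript length and library size, so the number of fragments, and with it any counting interval, is unknown. The deposited table also held the authors' own comparisons (fold changes and p-values), which were not used. Genes that reached 0.5 FPKM in 3 or more libraries were tested on log2(FPKM + 1), a scale that understates the change of low genes, with limma 3.58.1 (variance trend, R 4.3.3) in a single model of 4 genotype means, with Benjamini-Hochberg adjustment over all 19660 genes. The script was tested on simulated data. Copies were aligned with blastn 2.17.0, over at least 70% of the coding sequence, and tables were joined with pandas 2.3.3. Sequences and positions were taken from RefSeq (TAIR10.1).

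The members and gene lists were chosen with earlier results of these data known. Genes were named if called with a mean of at least 1 FPKM and no overlap (up to 10 for each direction), if among the 10 most abundant, if on a list by role, or if among the 4 largest called changes of a family of at least 5 genes or of a partner list. Tandem neighbours and the other called genes were named after their values were seen. The alternatives were a pseudocount of 0.1, no filter on low values, median-of-ratios and upper-quartile scaling, a replicate block, library weights, only the compared genotypes in the model, and leaving out each plant in turn. The libraries are of separate plants, and p-values measure the spread between them.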

Additional observations from a re-analysis of the deposited data

How the results depend on the processing

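Of the counts of P450s called, the number lower in 35S:KLU than Col-0 moved most: 7 with libraries scaled by median of ratios, 10 when scaled by upper quartile, 15 with library weights and 9 with only the compared genotypes in the model, against 4. The numbers higher than Col-0 in the same settings were 12, 12, 16 and 16, against 11. Higher calls thus outnumbered lower ones by little with library weights and upper-quartile scaling. Among all 19660 genes, the numbers lower in these 4 settings were 1051, 1301, 1541 and 1370, against 811. Those higher were 1314, 1126, 1941 and 1730, against 984. With 1 plant left out, the counts ranged over 6 to 14 higher and 1 to 11 lower than Col-0, 14 to 24 higher and 3 to 9 lower than klu, and 0 to 0 both for klu against Col-0 and between the lines. All genes ranged over 504 to 1690 higher and 468 to 1343 lower than Col-0, and 1063 to 2181 higher and 758 to 1565 lower than klu. The cause was not tested. Each of these settings has fewer samples, and the counts moved both ways. The 14 higher and 11 lower than Col-0 came without klu replicate 1, and the 24 higher than klu without klu replicate 3. With the replicate number as a block, 12 P450s were higher and 4 lower than Col-0 and 20 higher and 6 lower than klu. The numbers did not pair the plants: of 18 same-numbered pairs 1 had a correlation of deviations over 0.1 (-0.16 to 0.13), and 2 libraries correlated best with their own number. No fold change of a gene named by the rule or called changed its direction while called. Low genes such as CYP76C5 and CYP710A1 are limited by the unknown depth.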

Other observations

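Some P450s are described in the table by their reaction and not as cytochrome P450, and so lie outside the 104 genes. Of 6 such genes on the lists by role, CYP74B2 and CYP84A1 were called higher in both comparisons, and CYP73A5, CYP74A, CYP701A3 and CYP88A4 in neither. Of all genes tested, 8.73% were called higher than klu and 5.01% higher than Col-0. CYP74B2, the hydroperoxide lyase of green leaf volatiles, had 17.3, 13.8 and 12.6 FPKM in 35S:KLU1, 14.1, 20.6 and 17.4 FPKM in 35S:KLU2, 3.79, 4.17 and 4.74 FPKM in klu and 4.80, 9.45 and 8.10 FPKM in Col-0. The overexpressors lay above all other plants, with 1.68 ± 0.18 relative to klu (adjusted p = 8.67e-05) and 1.03 ± 0.18 relative to Col-0 (adjusted p = 0.00223) (limma). CYP84A1, the ferulate 5-hydroxylase of syringyl lignin and sinapate esters, had 123, 110 and 101 FPKM in 35S:KLU1, 124, 108 and 114 FPKM in 35S:KLU2, 72.5, 74.2 and 79.4 FPKM in klu and 73.9, 85.0 and 85.9 FPKM in Col-0, again with no overlap. It changed by 0.58 ± 0.08 relative to klu (adjusted p = 0.000275) and 0.47 ± 0.08 relative to Col-0 (adjusted p = 0.00163) (limma). CYP74A, the allene oxide synthase of jasmonate synthesis, had 220, 244 and 194 FPKM in 35S:KLU1, 200, 223 and 196 FPKM in 35S:KLU2, 256, 196 and 180 FPKM in klu and 199, 247 and 209 FPKM in Col-0, with all genotypes overlapping.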
